A study of Mus musculus with 16 samples.

Results

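The genes described here are 9 genes that govern the entry of glucose into muscle fibres and its trapping as glucose 6-phosphate. They were taken by gene symbol from the table of 23970 symbols that the authors deposited: the glucose transporters Slc2a4, Slc2a1 and Slc2a3, the hexokinases Hk1 and Hk2, the Rab GTPase-activating proteins Tbc1d1 and Tbc1d4, and the alpha-arrestins Txnip and Arrdc4. All 9 were measured, and all 9 passed the filter on low values (0.5 FPKM or more on average). FPKM, the number of fragments per kilobase of transcript relative to all mapped fragments, is scaled for gene length and library size, so levels of different genes can be set side by side.

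Glucose enters skeletal muscle by facilitated diffusion through GLUT proteins. In resting fibres most GLUT4, the product of Slc2a4, is held in intracellular vesicles, and insulin or contraction brings it to the surface when TBC1D4 or TBC1D1 is phosphorylated and stops holding back Rab GTPases. Hexokinase then phosphorylates the sugar so that it cannot leave the fibre, while TXNIP and ARRDC4 are sugar-induced proteins that restrain uptake.

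Quadriceps was sampled from male C57BL/6NTac mice (16 weeks old, with no modified allele named) in 4 groups of 4 libraries. Fat supplied 10% of the energy in the control diet (CON) and 60% in the high-fat diet (HFD), which were given over 10 weeks. CON-pre and HFD-pre were sampled without the running test, whereas CON-post and HFD-post had eaten the same diets and were sampled 3 h after a maximal treadmill run. Per the Methods, both pre groups had been acclimatized to the treadmill and fasted like the post groups, so these were shared by all mice. The post mice had no food after the run, and the Methods do not spell out whether the fast of the pre mice covered these hours too. The labels do not name the animals, so a p-value measures the spread between libraries.

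The libraries were alike in total FPKM and depth. Their FPKM summed to between 283575 and 329282, and the depth of a library relative to CON-pre replicate 1, read from low-level genes, lay between 0.705 and 1.12. The labelled tissue matched its markers: the 8 muscle fibre markers (Acta1, Ckm and others) summed to between 55550 and 72485 FPKM in a library, against 74.0 to 111 FPKM for 10 endothelial markers and 67.6 to 253 FPKM for 12 myeloid markers. No marker of these lists was at 0 in every library. The sum of the 10 slow-fibre markers varied widely, from 227 FPKM in a CON-post library to 866 FPKM in an HFD-post library. In whole muscle, fewer cells of a type and less RNA per cell cannot be told apart.

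Exercise up-regulated Hk2, the insulin- and exercise-responsive hexokinase of muscle, to about the same level on both diets, from a mean of 52.9 to 111 FPKM on CON and from 48.6 to 109 FPKM on HFD. Tbc1d1 was the other gene called for exercise, by 0.52 on the log2 scale when both diets were averaged. It was not called within either diet, and the averaged call was lost in 10 of 29 other fits. By limma no gene of the 9 was called for diet. Slc2a4 was nevertheless lower in each HFD-pre library than in any CON-pre library, a difference that did not pass the test across all genes.

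A gene was called at a Benjamini-Hochberg adjusted p under 0.05, with limma fitted to log2(FPKM + 0.5) of all 11256 genes tested, and fold changes below are on that scale, which understates the change of low genes. In CON-post against CON-pre, 1 of the 9 genes was called (Hk2), where 1.11% of all genes tested were called. In HFD-post against HFD-pre, 1 of the 9 was called (Hk2 again), against 0.542% of all genes. With exercise averaged over both diets, 2 of the 9 were called (Hk2 and Tbc1d1), against 3.86% of all genes. This average uses the same libraries as the 2 comparisons within a diet and is no further evidence of direction. Hk2 and Tbc1d1 are among the genes that the study had listed from these same libraries, so their direction is not independent evidence either.

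For diet, limma called 0 of the 9 genes in HFD-pre against CON-pre (0.346% of all genes called), 0 of the 9 in HFD-post against CON-post (0.151% of all genes) and 0 of the 9 with diet averaged over exercise states (0.959% of all genes). At an unadjusted p under 0.05, 2, 0 and 2 of the 9 genes passed, next to 929, 708 and 1174 of the 11256 genes tested. For the interaction of diet and exercise, which asks whether the response to exercise differed between diets, limma called 0 of the 9 genes and 0% of all genes. At an unadjusted p under 0.05, 0 of the 9 genes and 356 of all genes passed for the interaction. Tbc1d1 is also among the genes that the study had listed for diet before exercise, from a test on the aligned reads, which were not used here.

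The median log2 fold change of the 9 genes was 0.12 in CON-post against CON-pre and 0.28 in HFD-post against HFD-pre, where the medians of all genes tested were -0.0058 and 0.035. In both comparisons 8 of the 9 log2 fold changes were above 0, of which 1 was called. For diet the medians were -0.096 before exercise and 0.044 after it, next to -0.034 and 0.0038 for all genes.

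Groups of 4 that do not overlap at all were counted as well. In HFD-pre against CON-pre this held for 1 of the 9 genes (Slc2a4), where it held for 5.62% of all genes tested. In CON-post against CON-pre it held for 1 (Hk2), against 5.82% of all genes. In HFD-post against HFD-pre it held for 3 (Slc2a1, Hk2 and Tbc1d1), against 6.81% of all genes, and in HFD-post against CON-post for 0, against 3.16% of all genes.

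**Figure D1:**
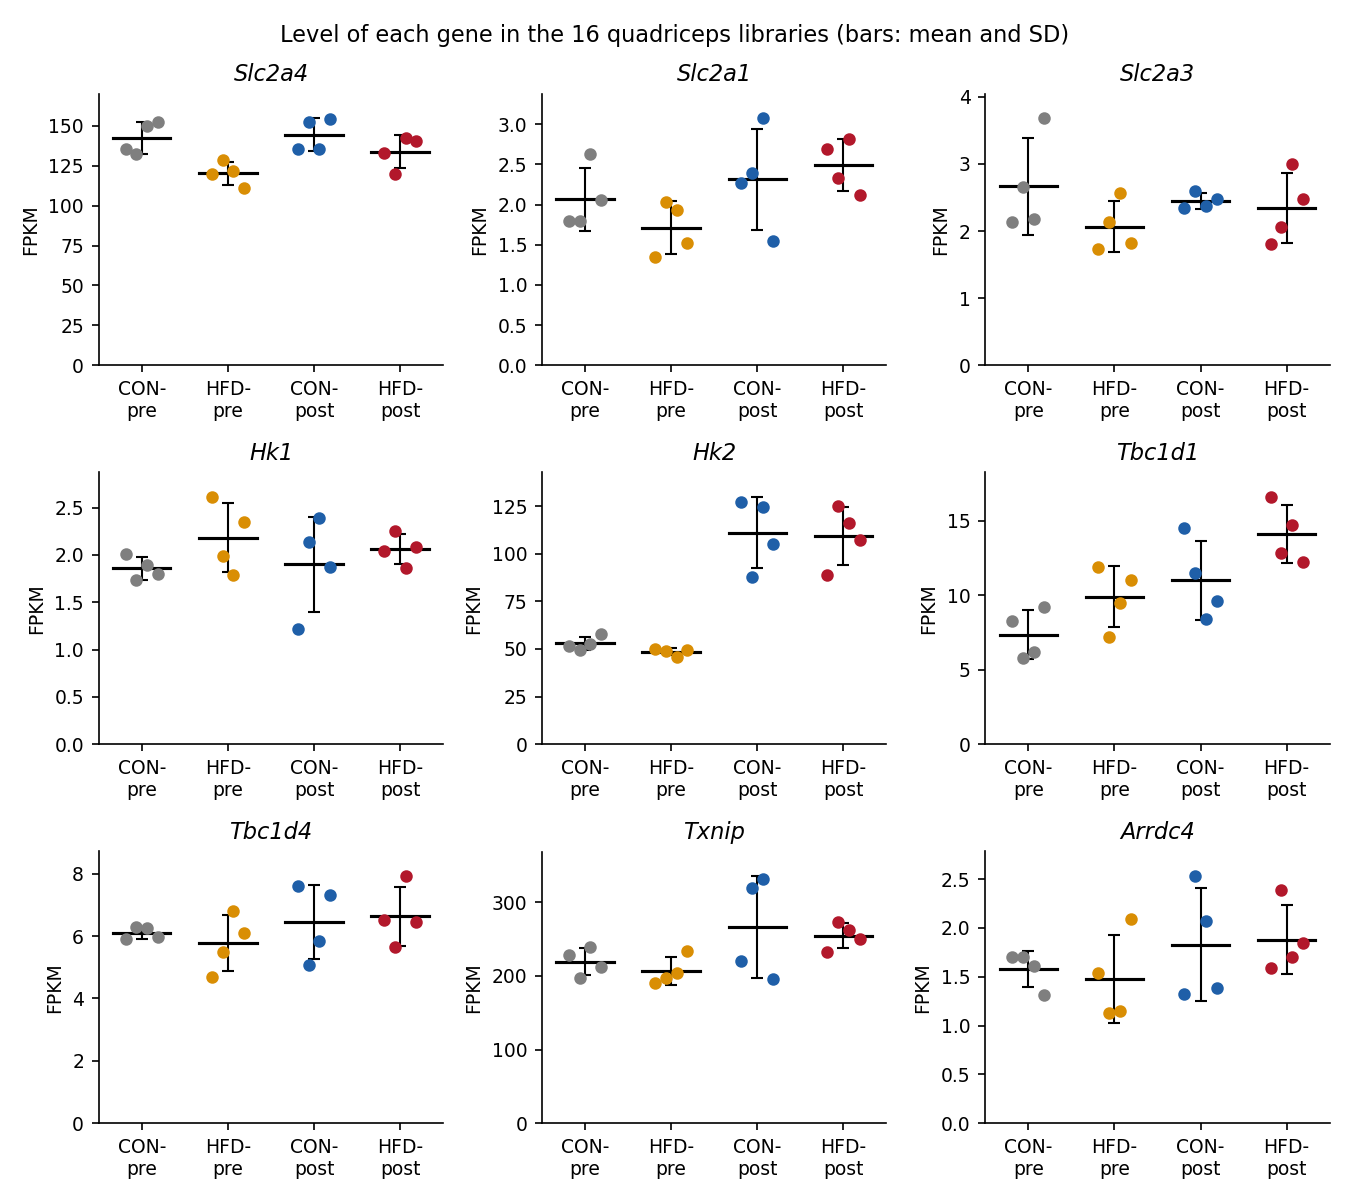
Level in FPKM (vertical axis, linear from 0) of each of the 9 genes in the 16 libraries, by group, with replicates 1 to 4 from left to right. Points are libraries, and black lines are the group mean and SD (n = 4). The 8 post libraries of Hk2 lie between 87.5 and 127 FPKM and the 8 pre libraries between 45.8 and 57.8 FPKM, with no such gap between pre and post libraries in the other genes.

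Levels of the 9 genes spanned a wide range. Over all 16 libraries the mean was highest for Txnip (237 FPKM), followed by Slc2a4 (135), Hk2 (80.4), Tbc1d1 (10.6), Tbc1d4 (6.24), Slc2a3 (2.38), Slc2a1 (2.15), Hk1 (2.00) and Arrdc4 (1.69 FPKM). Txnip ranked 119th, Slc2a4 229th and Hk2 410th of the 11256 genes tested. Txnip was above Slc2a4 in 16 of 16 libraries, Slc2a4 above Hk2 in 15, Hk2 above Tbc1d1 in 16, Tbc1d1 above Tbc1d4 in 14 and Tbc1d4 above Slc2a3 in 16. The 4 lowest genes were not well separated, since Slc2a3 exceeded Slc2a1 in 12 of 16 libraries, Slc2a1 exceeded Hk1 in 12 and Hk1 exceeded Arrdc4 in 13.

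Among Slc2a4, Slc2a1 and Slc2a3, Slc2a4, which encodes the insulin- and contraction-responsive GLUT4, made up nearly all of the message. Slc2a8 (2.91 FPKM) and Slc2a12 (2.26 FPKM) were at levels near those of Slc2a1 and Slc2a3 and are not in this sum. Its share of the summed FPKM of Slc2a4, Slc2a1 and Slc2a3 was 96.8% ± 0.339 in CON-pre, 97.0% ± 0.440 in HFD-pre, 96.8% ± 0.542 in CON-post and 96.5% ± 0.339 in HFD-post (SD, n = 4). The gene lies on chromosome 11 (69942286 to 69948216, GRCm38.p6). Slc2a4 measured 135, 132, 150 and 152 FPKM in CON-pre replicates 1 to 4, and 120, 129, 122 and 111 FPKM in HFD-pre. Every HFD-pre library was thus below every CON-pre library, with means of 120 ± 7.25 and 142 ± 10.02 FPKM. The log2 fold change of Slc2a4 in HFD-pre against CON-pre was -0.24 (SE 0.075, 95% interval -0.40 to -0.082), and it was not called (limma, adjusted p = 0.299). The exact two-sided permutation test gave p = 0.0286, the smallest that 4 against 4 libraries allow.

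After exercise Slc2a4 measured 135, 152, 136 and 154 FPKM in CON-post and 133, 120, 142 and 141 FPKM in HFD-post. These 2 groups overlapped, and so did each post group with its pre group. The log2 fold change of Slc2a4 was 0.021 (SE 0.075) in CON-post against CON-pre and 0.15 (SE 0.075, 95% interval -0.0077 to 0.31, adjusted p = 0.449) in HFD-post against HFD-pre. In HFD-post against CON-post the difference was -0.11 (SE 0.075, adjusted p = 0.925). With diet averaged over exercise states it was -0.18 (SE 0.053, adjusted p = 0.174).

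Muscle markers moved the same way as Slc2a4 before exercise. The 8 muscle fibre markers summed to 64505 to 72485 FPKM in CON-pre and 59742 to 63962 FPKM in HFD-pre, and the 11 fast-fibre markers to 73307 to 81657 and 64977 to 72198 FPKM, so that neither sum overlapped between the groups. The 10 slow-fibre markers summed to 243 to 786 FPKM in CON-pre and 239 to 580 FPKM in HFD-pre and did overlap. Of these 10, 1 had a log2 fold change above 0, and 0 passed limma at an adjusted or an unadjusted p under 0.05. Their median log2 fold change was -0.50, against -0.20 for the fast-fibre and -0.19 for the muscle fibre markers. With a fast-fibre marker score as a covariate the log2 fold change of Slc2a4 was -0.23 (SE 0.10, limma adjusted p = 0.91, unadjusted p = 0.0421). Over all genes this covariate took the limma calls in this contrast from 39 to 0, and the genes at an unadjusted p under 0.05 from 929 to 603. With a slow-fibre score instead, the log2 fold change of Slc2a4 was -0.24 (SE 0.079, limma adjusted p = 0.241). The slow-fibre score took the calls over all genes from 39 to 66. The part of fibre content in the difference was not tested beyond this.

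Slc2a1 encodes GLUT1, the basal transporter of endothelium, red blood cells and many other cells, and Slc2a3 encodes GLUT3, a high-affinity transporter known from neurons and blood cells. Both were low in whole muscle. Slc2a1 measured 1.35, 2.04, 1.94 and 1.53 FPKM in HFD-pre and 2.70, 2.33, 2.81 and 2.12 FPKM in HFD-post. Every HFD-post library was above every HFD-pre library, though the closest pair of libraries nearly met. The log2 fold change of Slc2a1 was 0.44 (SE 0.16, 95% interval 0.10 to 0.78), which was not called (limma, adjusted p = 0.285), with an exact permutation p = 0.0286. On CON the values were 1.80, 1.79, 2.63 and 2.06 FPKM before and 2.27, 2.39, 3.08 and 1.54 FPKM after exercise, and the groups overlapped widely, with a log2 fold change of 0.12 (SE 0.16, adjusted p = 0.84). The difference between the 2 responses of Slc2a1, tested as the interaction, was 0.32 (SE 0.23, 95% interval -0.16 to 0.80) and was not called (limma, adjusted p = 1.00).

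Markers of cells that carry GLUT1 were compared between HFD-pre and HFD-post. The 10 endothelial markers summed to 84.6 to 99.2 FPKM in HFD-pre and 88.9 to 102 FPKM in HFD-post, and the 10 red blood cell markers to 260 to 484 and 316 to 909 FPKM, so both sums overlapped. Of the endothelial markers 1 of 10 was called, where 0.542% of all genes were. The marker called was Pecam1, which was higher in HFD-post (log2 fold change 0.39, SE 0.079, limma adjusted p = 0.0347), and the median of the list was 0.0063. Of the 7 red blood cell markers tested 6 had a log2 fold change above 0, with a median of 0.50. By limma 0 of the 7 passed an adjusted or an unadjusted p under 0.05, where 0.542% and 11.7% of all genes did. The part of these cells in the values of Slc2a1 was not tested. Slc2a3 ranged from 1.74 to 3.68 FPKM over the 16 libraries, and each of the 4 pairs of groups overlapped, with log2 fold changes between -0.29 (HFD-pre against CON-pre, SE 0.15, adjusted p = 0.661) and 0.14 (HFD-post against HFD-pre, SE 0.15, adjusted p = 0.773).

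Of the hexokinases, Hk2 showed the largest response to exercise of the 9 genes in either diet. Hexokinase II is the isoform that insulin-sensitive tissues use, and hexokinase I the widespread isoform of brain and red blood cells. Hk2 lies on the minus strand of chromosome 6 (82725025 to 82774454, GRCm38.p6). It measured 51.8, 49.4, 52.4 and 57.8 FPKM in CON-pre replicates 1 to 4 and 127, 87.5, 125 and 105 FPKM in CON-post. On HFD it measured 50.1, 49.0, 45.8 and 49.3 FPKM before exercise and 89.0, 125, 116 and 107 FPKM after it. In both diets each post library was far above each pre library, and the post groups were also more spread out, with an SD of 18.6 FPKM in CON-post and 15.3 FPKM in HFD-post against 3.55 and 1.91 FPKM in CON-pre and HFD-pre.

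Hk2 was up-regulated 2.07-fold in CON-post against CON-pre (log2 fold change 1.05, SE 0.11, limma adjusted p = 7.40e-05) and 2.22-fold in HFD-post against HFD-pre (1.15, SE 0.11, adjusted p = 8.37e-05). The call held in each of the 30 fits with another setting or without a library, on both diets. The 2 responses differed by 0.10 (SE 0.16, 95% interval -0.24 to 0.44), and the interaction was not called (adjusted p = 1.00). Between diets the difference of Hk2 was -0.12 (SE 0.11, adjusted p = 0.865) before exercise and -0.019 (SE 0.11, 95% interval -0.26 to 0.22, adjusted p = 0.997) after it.

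The 250 bases before the Hk2 start site are shown because Hk2 is the gene of the 9 that exercise changed most, and because its promoter is known for responding to cyclic AMP. The sequence is from RefSeq (GRCm38.p6, chr6:82774455-82774704, minus strand, read 5′ to 3′). Capitals mark the 3 GC boxes (GGGCGG or its reverse complement) and the single core of a cAMP response element (TGACG, here as its reverse complement).
Hk2: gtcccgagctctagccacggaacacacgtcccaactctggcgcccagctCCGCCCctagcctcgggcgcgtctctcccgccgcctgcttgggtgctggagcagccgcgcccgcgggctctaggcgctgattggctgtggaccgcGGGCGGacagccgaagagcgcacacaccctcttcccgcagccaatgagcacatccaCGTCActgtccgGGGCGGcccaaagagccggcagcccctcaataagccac
The core lay 50 to 46 bases before the start site and the nearest GC box 38 to 33 bases before it. Of 32851 mouse promoter windows of this length searched on both strands, 17.8% held the core and 32.7% held a GC box, so neither is rare. The core is also part of the full cAMP response element (TGACGTCA, in 1.55% of windows), which was not found here.

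The promoters given for the other genes were searched for the same motifs. Slc2a1 had 2 GC boxes and Tbc1d4 had 1, of the 2 promoters of Tbc1d1 the downstream window had 4 GC boxes and 2 cores of the cAMP response element, and both promoters of Hk1 held none of the motifs searched, which included an E-box (CACGTG) and a TATA box (TATAAA, in 12.4% of windows). No match says only that these letters are not in the window.

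Hk1 stayed low. It measured between 1.22 and 2.61 FPKM in the 16 libraries, with group means of 1.86 ± 0.121 in CON-pre, 2.18 ± 0.366 in HFD-pre, 1.90 ± 0.504 in CON-post and 2.06 ± 0.161 FPKM in HFD-post (SD, n = 4). Its log2 fold change was 0.0023 (SE 0.14, 95% interval -0.29 to 0.30) in CON-post against CON-pre and -0.059 (SE 0.14, 95% interval -0.35 to 0.24) in HFD-post against HFD-pre. Hk2 thus made up 96.6% ± 0.300 of the summed FPKM of both hexokinases in CON-pre and 95.7% ± 0.558 in HFD-pre, and after exercise 98.3% ± 0.593 of it on CON and 98.1% ± 0.280 on HFD. The ratio of Hk2 to Slc2a4 was 0.372 ± 0.0146 in CON-pre and 0.405 ± 0.0323 in HFD-pre, against 0.778 ± 0.180 in CON-post and 0.823 ± 0.159 in HFD-post. No post library overlapped a pre library in this ratio, the highest pre value being 0.444 and the lowest post value 0.575.

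**Figure D2:**
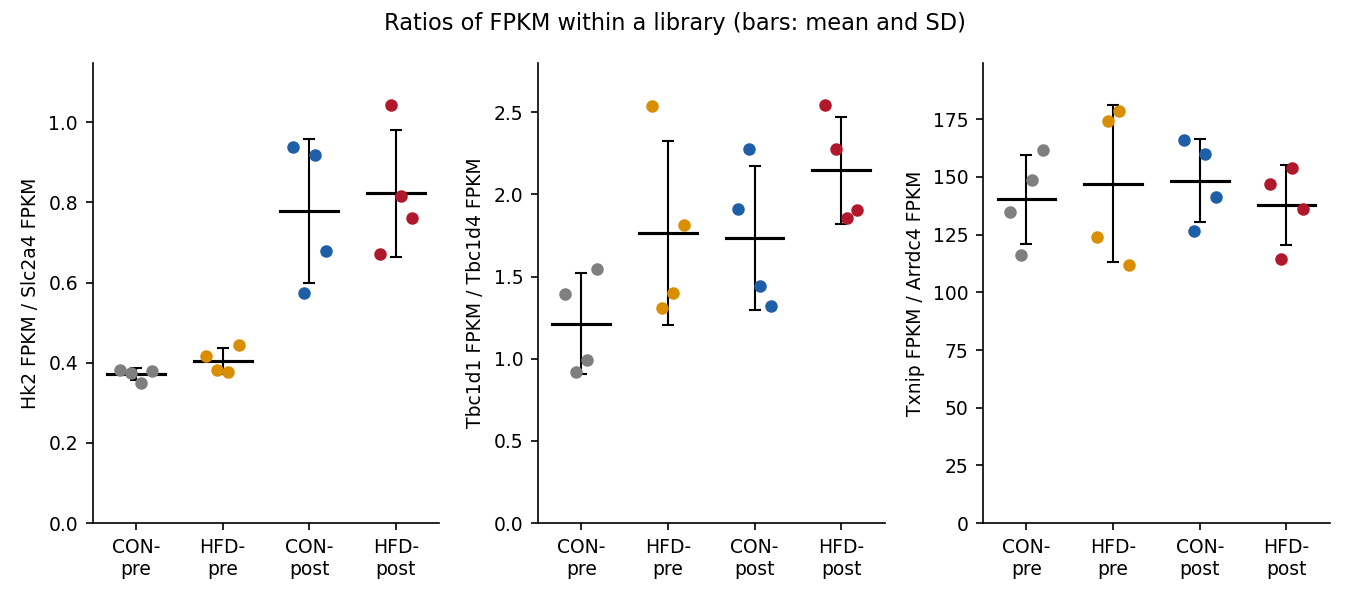
Ratio of FPKM (vertical axes, linear from 0) of Hk2 to Slc2a4, of Tbc1d1 to Tbc1d4 and of Txnip to Arrdc4 within each of the 16 libraries, by group. Points are libraries and black lines the group mean and SD (n = 4). The ratio of Hk2 to Slc2a4 lies below 0.45 in the pre libraries and above 0.57 in the post libraries, whereas the ratio of Txnip to Arrdc4 is spread over 112 to 178 with no separation by group.

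The Rab GTPase-activating proteins differed from each other. TBC1D1 is known as the contraction- and AMPK-responsive member and TBC1D4, also named AS160, as the main Akt target. Tbc1d1 measured 8.25, 5.78, 6.18 and 9.24 FPKM in CON-pre and 11.9, 7.20, 9.52 and 11.03 FPKM in HFD-pre. After exercise it measured 14.5, 11.5, 8.40 and 9.65 FPKM in CON-post and 16.6, 12.8, 14.7 and 12.3 FPKM in HFD-post. The HFD-post libraries were all above the HFD-pre libraries, CON-post overlapped CON-pre by a single library on each side, and CON and HFD overlapped both before and after exercise. The group means of Tbc1d1 were 7.36 ± 1.66, 9.92 ± 2.07, 11.02 ± 2.65 and 14.1 ± 1.96 FPKM in that order (SD, n = 4).

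With exercise averaged over both diets Tbc1d1 rose 1.44-fold (log2 fold change 0.52, SE 0.13, limma adjusted p = 0.0315). Within a diet the difference was 0.55 (SE 0.18, adjusted p = 0.212, exact permutation p = 0.0571) on CON and 0.50 (SE 0.18, adjusted p = 0.285, exact permutation p = 0.0286) on HFD, and neither was called. The interaction of Tbc1d1 was -0.046 (SE 0.26, 95% interval -0.59 to 0.50). For diet, Tbc1d1 had a log2 fold change of 0.41 (SE 0.18, 95% interval 0.022 to 0.79, adjusted p = 0.566) before exercise and 0.36 (SE 0.18, adjusted p = 0.826) after it, neither of which was called. The exercise call of Tbc1d1 lay near the threshold. It was lost in 8 of the 16 fits that left out a library, namely CON-pre 2 or 3, HFD-pre 2 or 3, CON-post 1 or 2, or HFD-post 1 or 3, where the adjusted p lay between 0.0542 (without CON-post 2) and 0.0694 (without CON-pre 2). It was also lost with a fast-fibre score as a covariate (adjusted p = 0.0982, where the calls over all genes went from 435 to 264) and without a filter on low values (adjusted p = 0.0644), and the log2 fold change stayed between 0.46 and 0.58 in every fit.

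Tbc1d4 varied less. It measured between 4.70 and 7.92 FPKM over the 16 libraries, with group means of 6.10 ± 0.194 in CON-pre, 5.77 ± 0.890 in HFD-pre, 6.45 ± 1.20 in CON-post and 6.63 ± 0.946 FPKM in HFD-post, and each pair of groups overlapped. Its largest log2 fold change was 0.19 (HFD-post against HFD-pre, SE 0.13, 95% interval -0.085 to 0.46, adjusted p = 0.607). The ratio of Tbc1d1 to Tbc1d4 was 1.21 ± 0.307 in CON-pre, 1.76 ± 0.559 in HFD-pre, 1.74 ± 0.440 in CON-post and 2.15 ± 0.325 in HFD-post. HFD-post (1.86 to 2.54) did not overlap CON-pre (0.918 to 1.55) in this ratio, a pair that differs in both diet and exercise.

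Txnip, which encodes the thioredoxin-interacting protein, was the most abundant of the 9 genes, and Arrdc4, its closest relative among the alpha-arrestins, was the least abundant. Both are known targets of the glucose-sensing Mondo factors, which bind with MLX at carbohydrate response elements built from a pair of E-box-like motifs. Their promoters are shown for that element, from RefSeq (GRCm38.p6), as the 250 bases before each start site, read 5′ to 3′: chr3:96557707-96557956 on the plus strand for Txnip and chr7:68749239-68749488 on the minus strand for Arrdc4. Capitals mark, in Txnip, a GC box (as its reverse complement) and the carbohydrate response element, and in Arrdc4 an E-box (CACGTG).
Txnip: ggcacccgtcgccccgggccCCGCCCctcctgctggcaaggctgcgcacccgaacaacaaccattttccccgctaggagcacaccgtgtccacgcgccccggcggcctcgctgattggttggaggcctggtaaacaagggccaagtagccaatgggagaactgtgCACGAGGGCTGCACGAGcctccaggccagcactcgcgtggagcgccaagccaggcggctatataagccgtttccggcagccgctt
Arrdc4: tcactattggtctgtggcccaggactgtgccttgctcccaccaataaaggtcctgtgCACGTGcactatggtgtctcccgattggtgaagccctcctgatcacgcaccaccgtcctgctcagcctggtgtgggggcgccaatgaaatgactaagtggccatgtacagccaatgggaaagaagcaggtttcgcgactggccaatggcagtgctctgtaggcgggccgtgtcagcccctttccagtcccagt
The element of Txnip lay 85 to 69 bases before the start site, and 0.28% of the 32851 promoter windows held a match. The carbohydrate response element was not found in the Arrdc4 window. The E-box of Arrdc4 lay 193 to 188 bases before the start site, and 6.02% of the windows held this motif. A match describes the letters only.

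Txnip measured 229, 198, 239 and 212 FPKM in CON-pre and 191, 197, 205 and 234 FPKM in HFD-pre. After exercise it measured 220, 320, 331 and 195 FPKM in CON-post and 233, 273, 262 and 250 FPKM in HFD-post. CON-post was split, with 2 libraries of 320 FPKM or more and 2 at 220 and 195 FPKM, so its SD of 68.8 FPKM was the largest of the 4 groups. HFD-post overlapped HFD-pre by its lowest library, which lay just below the highest of HFD-pre. The log2 fold change of Txnip was 0.25 (SE 0.14, 95% interval -0.045 to 0.54, adjusted p = 0.536) in CON-post against CON-pre and 0.30 (SE 0.14, 95% interval 0.0091 to 0.59, adjusted p = 0.407) in HFD-post against HFD-pre, and neither was called by limma. With exercise averaged over both diets it was 0.27 (SE 0.098, adjusted p = 0.139), and it passed the threshold in 1 of 29 other fits, that without CON-post 4 (adjusted p = 0.0359). Between diets the log2 fold change of Txnip was -0.087 (SE 0.14, adjusted p = 0.94) before exercise and -0.033 (SE 0.14, adjusted p = 0.997) after it, and with a fast-fibre score as a covariate it was 0.12 and 0.11, not called either way.

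Arrdc4 ranged from 1.13 to 2.53 FPKM over the 16 libraries, and each pair of groups overlapped. Its group means were 1.58 ± 0.183 in CON-pre, 1.48 ± 0.451 in HFD-pre, 1.83 ± 0.578 in CON-post and 1.88 ± 0.354 FPKM in HFD-post, and its largest log2 fold change was 0.28 (HFD-post against HFD-pre, SE 0.18, adjusted p = 0.567). Txnip was between 112 and 178 times as high as Arrdc4 in a library. Within groups, libraries with more Txnip tended to hold more Arrdc4: after group means were removed, Pearson's r was 0.742 and Spearman's rho 0.718 over the 16 libraries, and r was 0.756 without CON-post 3 and CON-post 4, the 2 libraries in which Txnip lay farthest from the median after its group mean was removed. The permutation test within groups gave p = 0.0220 for r and p = 0.0356 for rho, which became 0.334 and 0.371 after adjustment over the 36 pairs of genes. Of the 36 pairs, 4 passed an unadjusted p under 0.05 and 0 an adjusted p under 0.05 by this permutation test. The most negative pair was Hk1 and Tbc1d4 (r = -0.747, rho = -0.75, permutation p = 0.0110 and 0.0145, adjusted p = 0.334 and 0.262).

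**Figure D3:**
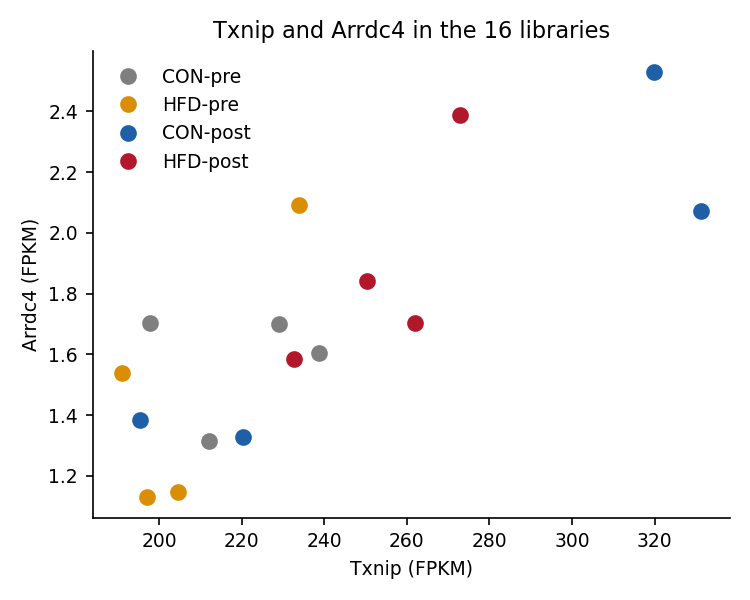
Level of Arrdc4 (vertical axis, FPKM) against that of Txnip (horizontal axis, FPKM; neither axis starts at 0) in the 16 libraries, coloured by group. CON-post holds the 2 libraries with the most Txnip (320 and 331 FPKM), which also lie high in Arrdc4 (2.53 and 2.07 FPKM), and 2 that lie among the pre libraries.

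**Figure D4:**
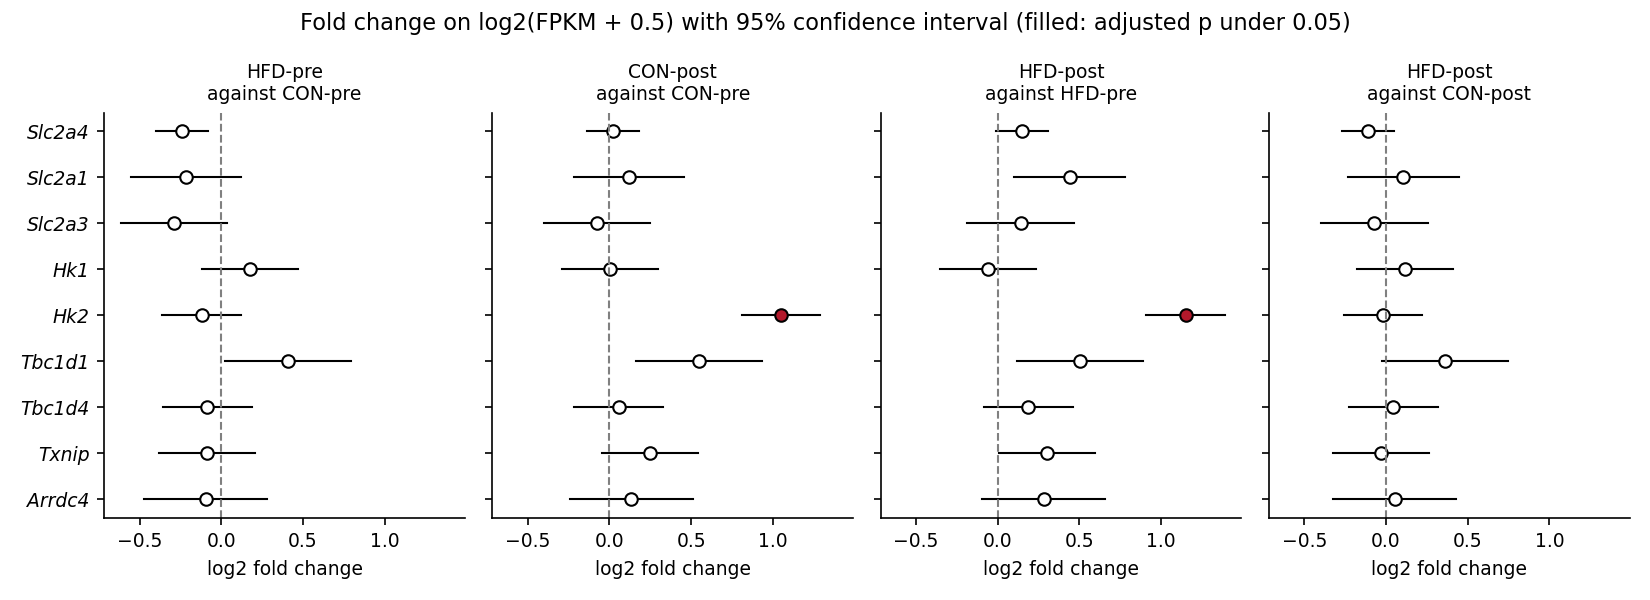
Log2 fold change of the 9 genes (horizontal axis, on log2(FPKM + 0.5)) with its 95% confidence interval in the 4 comparisons of groups. Filled points passed an adjusted p under 0.05 in limma, which in these 4 comparisons were those of Hk2 after exercise on either diet, at 1.05 and 1.15.

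Genes around these steps were taken as lists. Other sugar transporters were scarce: of 13 in the table, 3 passed the filter and 0 were called in any of the 7 contrasts, the highest being Slc50a1 (5.94 FPKM) and Slc2a8 (2.91 FPKM). At an unadjusted p under 0.05, 1 of these 3, Slc2a12 (GLUT12), passed in 4 contrasts. It had a log2 fold change of -0.28 in HFD-pre against CON-pre (SE 0.11, limma adjusted p = 0.49, where 8.25% of all genes passed), -0.27 in CON-post against CON-pre (SE 0.11, adjusted p = 0.376, 11.1% of all genes), -0.24 with exercise averaged (SE 0.081, adjusted p = 0.109, 18.5%) and -0.25 with diet averaged (SE 0.081, adjusted p = 0.204, 10.4%). For exercise on HFD, for diet after exercise and for the interaction, limma passed 0 of the 3, against 11.7%, 6.29% and 3.16% of all genes. Of 5 other hexose kinases tested, 1 was called, in a contrast where 3.86% of all genes were: Adpgk, an ADP-dependent glucokinase, rose with exercise averaged over diets (log2 fold change 0.51, SE 0.11, limma adjusted p = 0.0197), from 3.00 ± 0.591 and 2.53 ± 0.524 FPKM in CON-pre and HFD-pre to 4.07 ± 0.626 and 4.23 ± 0.912 FPKM in CON-post and HFD-post. The highest of this list was Khk, ketohexokinase (4.13 FPKM), which was not called.

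The machinery that moves GLUT4 vesicles was in the table for 28 of 30 listed symbols, of which 27 passed the filter. By limma 0 of the 27 were called in any of the 7 contrasts, and at an unadjusted p under 0.05 with exercise averaged over diets 4 were higher (Tbc1d15, Myo5a, Rab14 and Rac1) and 3 lower (Ralgapb, Stxbp4 and Vamp2), where 18.5% of all genes tested passed. Rab10 (105 FPKM), a Rab that TBC1D4 acts on, and Rac1 (76.0 FPKM), a GTPase needed for actin remodelling, were the highest of them. Their log2 fold changes with exercise averaged over diets were 0.021 (SE 0.046) and 0.095 (SE 0.043).

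Of 20 kinases and adaptors upstream of TBC1D1 and TBC1D4, 1 was called within each diet after exercise (1.11% of all genes on CON and 0.542% on HFD) and 2 with both diets averaged (3.86% of all genes). Prkag3, the muscle-specific AMPK gamma subunit, was down-regulated from 46.2 ± 4.48 to 28.9 ± 4.52 FPKM on CON (log2 fold change -0.67, SE 0.11, adjusted p = 0.00262) and from 45.8 ± 3.15 to 31.8 ± 3.49 FPKM on HFD (-0.53, SE 0.11, adjusted p = 0.0347, or 0.0691 with a fast-fibre score as a covariate). Irs2, an insulin receptor substrate, rose with exercise averaged over diets (0.62, SE 0.12, adjusted p = 0.00815), from 2.90 ± 0.391 and 2.33 ± 0.472 FPKM to 4.67 ± 0.604 and 3.93 ± 1.13 FPKM on CON and HFD. The highest genes of the list, Prkab2 (106 FPKM), an AMPK beta subunit, and Stk11 (42.2 FPKM), which encodes LKB1, were not called. For diet, limma called 0 of the 20 genes in any of the 3 diet contrasts. At an unadjusted p under 0.05, 3 of the 20 passed in HFD-pre against CON-pre, all lower (Akt2, Camkk2 and Prkaa2), where 8.25% of all genes passed. In HFD-post against CON-post 1 was higher and 1 lower (6.29% of all genes), and with diet averaged 1 was higher and 3 lower (10.4% of all genes).

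Of 23 regulators of Slc2a4 and Hk2 transcription, 2 were called on each diet after exercise, both up-regulated, where 1.11% of all genes were called on CON and 0.542% on HFD. Ppargc1a, which encodes the coactivator PGC-1α, went from 6.60 ± 0.365 to 28.3 ± 7.998 FPKM on CON (log2 fold change 1.98, SE 0.19, adjusted p = 4.38e-05) and from 4.69 ± 0.344 to 22.3 ± 5.40 FPKM on HFD (2.10, SE 0.19, adjusted p = 2.87e-05). Nr4a3, an orphan nuclear receptor, went from 1.20 ± 0.423 to 13.7 ± 5.01 FPKM on CON (log2 fold change 3.03, SE 0.26, adjusted p = 3.24e-05) and from 0.433 ± 0.224 to 14.0 ± 3.23 FPKM on HFD (3.96, SE 0.26, adjusted p = 6.13e-07). With both diets averaged 6 of the 23 were called, against 3.86% of all genes. Beside these 2, Foxo1 (0.70), Foxo3 (0.48) and Hdac5 (0.28), a class II deacetylase, rose, and Mef2c (-0.20), a muscle transcription factor that acts on Slc2a4, fell (limma adjusted p between 0.00895 for Foxo3 and 0.0487 for Foxo1). With a fast-fibre score as a covariate, added after seeing the data, Foxo1 (adjusted p = 0.142), Hdac5 (0.0939) and Mef2c (0.0907) were not called. Nr4a1, among the highest of the list (46.2 FPKM), was not called.

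The genes most like Hk2 over the 16 libraries, by Pearson's r of log2 values, were Ppargc1a (0.987), Nr4a3 (0.974) and Fam134b (0.971), all of which follow the split between pre and post libraries. With group means removed, r was 0.920, 0.626 and 0.857. Fam134b, a receptor for autophagy of the endoplasmic reticulum, had means of 49.7 ± 6.88 FPKM in CON-pre and 53.1 ± 6.39 FPKM in HFD-pre, and of 124 ± 31.4 FPKM in CON-post against 124 ± 29.4 FPKM in HFD-post. The genes most like Tbc1d1 were Ip6k3 (0.886), an inositol hexakisphosphate kinase of muscle, Dach2 (0.845) and Fmo2 (0.827), for which r was 0.656, 0.736 and 0.549 with group means removed. Ip6k3 was ordered like Tbc1d1, with means of 12.02 ± 1.97, 17.3 ± 2.22, 19.2 ± 2.97 and 26.1 ± 1.18 FPKM (CON-pre and HFD-pre, then CON-post and HFD-post).

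The genes most like Slc2a4 were Cfd (0.814), Ybx3 (0.804) and Helz (0.784), and with group means removed r was 0.624, 0.520 and 0.608. Cfd, which encodes the adipocyte serine protease adipsin, had means of 105 ± 24.5, 27.4 ± 9.88, 114 ± 30.9 and 37.97 ± 11.2 FPKM in the same order of groups, and Ybx3, a cold-shock protein, 563 ± 25.5, 466 ± 16.6, 592 ± 46.1 and 510 ± 52.1 FPKM. The 10 adipocyte markers, of which Cfd is 1, did not move together on HFD. In HFD-pre against CON-pre Cfd fell (log2 fold change -1.97, limma adjusted p = 0.0044) and Lep, which encodes leptin, rose (2.34, adjusted p = 0.0138), while 6 of the 10 were above 0 with a median of 0.051. The markers summed to 376 to 480 FPKM in CON-pre and 326 to 418 FPKM in HFD-pre, which overlapped, and their part in the values of Slc2a4 was not tested. The genes most like Txnip were Medag (0.898), Plk2 (0.890) and Axl (0.871), and with group means removed r was 0.870, 0.864 and 0.840. These correlations describe 16 libraries that share 4 groups, with the genes picked as the highest of 11256, and carry no test.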

How the data were processed

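Quadriceps mRNA was sequenced by the authors from 16 libraries (stranded libraries, aligned with TopHat to mm9 and quantified with Cufflinks, per the Methods). The authors deposited FPKM per gene, which are scaled for gene length and library size and are not read counts, so no count model was used and the depth is known only between libraries. Of 24487 entries, 27 with names turned into dates were left out (0.0771% of FPKM) and the FPKM of 260 symbols in several entries were summed. A symbol was tested at a mean of at least 0.5 FPKM.

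limma 3.58.1 (R 4.3.3) was fitted to log2(FPKM + 0.5) of all 4 groups with a mean-variance trend and no covariate, after being tested on simulated data. The 7 contrasts were the 4 comparisons of groups, the interaction, and exercise and diet averaged. Single values were compared by exact two-sided permutation over 70 splits, and pairs of genes by 100000 permutations within groups. Alternatives were 16 settings and 16 leave-one-out fits. Python 3.11.15 was used for the tables (pandas 2.3.3 and numpy 2.4.6), the permutations (scipy 1.17.1) and the plots (matplotlib 3.10.9).

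The genes, lists and tests were chosen with earlier results of these data known. Named beside the 9 genes were, from each list, genes called in any contrast and the 2 of highest mean FPKM, and for Slc2a4, Hk2, Tbc1d1 and Txnip the 3 most correlated genes. Genes named for an unadjusted p alone were chosen after their values were seen. Positions and promoters are RefSeq GRCm38.p6: 692 of 692 gene loci that the study lists overlapped the gene of that name there, and 114 of 692 did in NCBIM37, the genome of the mm9 build. Promoters were given for 7 of the 9 genes. Slc2a1, Slc2a3, Hk1, Tbc1d1, Tbc1d4 and Txnip overlap other annotated genes, and whether reads were counted by strand is not given in the sources used here.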

Additional observations from a re-analysis of the deposited data

How the results depend on the processing

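The call of Hk2 after exercise held on both diets in every alternative. Otherwise the number of the 9 genes called moved from 2 to 1 with exercise averaged over diets, when no filter was used (1) or with a fast-fibre score as a covariate (1), and to between 1 and 3 when a library was left out, since Tbc1d1 was lost or Txnip gained. At an unadjusted p under 0.05 the number called was 2 in HFD-pre against CON-pre, 2 in CON-post against CON-pre, 4 in HFD-post against HFD-pre, 4 with exercise averaged and 2 with diet averaged, against 0, 1, 1, 2 and 0 at an adjusted p. Of all genes tested, 8.25%, 11.1%, 11.7%, 18.5% and 10.4% passed the unadjusted threshold in these contrasts. Same-numbered libraries of different groups did not deviate together (r between -0.220 and 0.213 over 24 pairs, 5 of them over 0.1), so the numbers were not taken to pair the mice. With the replicate block the number called was 0, 1, 1, 0, 0, 2 and 0 in the 7 contrasts, as without it. FPKM keep no count of reads, so the precision of the genes near 2 FPKM (Slc2a1, Slc2a3, Hk1 and Arrdc4) is known only from the spread between libraries.

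Of 1863 recomputed fold changes, 74 changed sign, none of them called, and the cause was not tested. With a fast-fibre score as a covariate the log2 fold change of Txnip became 0.12 (HFD-pre against CON-pre), 0.11 (HFD-post against CON-post), -0.012 (interaction) and 0.11 (diet averaged), and that of Arrdc4 0.044 (HFD-pre against CON-pre) and 0.096 (diet averaged). With a slow-fibre score Arrdc4 became -0.0063 (HFD-post against CON-post) and Tbc1d4 0.042 (diet averaged). With upper-quartile scaling Slc2a4 became -0.0070 and Hk1 -0.022 (CON-post against CON-pre), and Slc2a3 -0.0066 (exercise averaged). With quantile normalization Slc2a4 became -0.023 (CON-post against CON-pre), Hk2 0.0043 (HFD-post against CON-post) and Arrdc4 0.00046 (diet averaged). With array weights Hk2 became 0.0063 (HFD-post against CON-post), Tbc1d1 0.028 (interaction) and Hk1 0.00070 (exercise averaged), and with a pseudocount of 0.1 Hk1 became -0.0043 (CON-post against CON-pre).

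Leaving out each library in turn gave the following ranges where the sign changed. In HFD-pre against CON-pre, Tbc1d4 ranged from -0.16 to 0.0012. In CON-post against CON-pre, Slc2a4 ranged from -0.014 to 0.054, Slc2a1 from -0.0054 to 0.26, Slc2a3 from -0.16 to 0.066, Hk1 from -0.095 to 0.16, Tbc1d4 from -0.021 to 0.16 and Arrdc4 from -0.0038 to 0.24. In HFD-post against HFD-pre, Hk1 ranged from -0.13 to 0.016. In HFD-post against CON-post, Slc2a1 ranged from -0.039 to 0.23, Slc2a3 from -0.18 to 0.021, Hk1 from -0.036 to 0.21, Hk2 from -0.13 to 0.075, Tbc1d4 from -0.057 to 0.12, Txnip from -0.17 to 0.084 and Arrdc4 from -0.053 to 0.19. In the interaction, Hk1 ranged from -0.21 to 0.036, Hk2 from -0.0083 to 0.19, Tbc1d1 from -0.18 to 0.090 and Txnip from -0.082 to 0.17. With exercise averaged, Slc2a3 ranged from -0.022 to 0.10 and Hk1 from -0.077 to 0.048, and with diet averaged Slc2a1 ranged from -0.13 to 0.0081, Tbc1d4 from -0.071 to 0.023 and Arrdc4 from -0.091 to 0.048.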

Other observations

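Beyond the hexokinase step, a list of 17 symbols covered glucose 6-phosphate and the paths that follow it. Of these, 16 were in the table, and all 16 were tested. Exercise averaged over diets called 0 of the 16 by limma, and at an unadjusted p under 0.05 1 was higher (Ugp2) and 1 lower (Slc37a4), against 18.5% of all genes. With diet averaged over exercise states 2 were called, both lower on HFD, where 0.959% of all genes tested were called. Tkt, the transketolase of the pentose phosphate pathway, had means of 6.56 ± 0.713 FPKM in CON-pre and 3.69 ± 0.780 in HFD-pre, and of 5.48 ± 1.082 in CON-post and 3.72 ± 1.22 FPKM in HFD-post (log2 fold change -0.65, SE 0.13, adjusted p = 0.0221). Pgm2, a phosphoglucomutase, which turns glucose 6-phosphate to glucose 1-phosphate, had means of 493 ± 20.3 and 406 ± 16.4 FPKM in CON-pre and HFD-pre, and of 459 ± 50.03 and 404 ± 28.8 FPKM in CON-post and HFD-post (-0.23, SE 0.053, adjusted p = 0.0492, close to the threshold). Muscle markers were lower in the same contrast, where 10.4% of all genes passed an unadjusted p under 0.05 by limma in either direction. Of 11 fast-fibre markers, 7 passed as lower (median log2 fold change -0.16). Of 8 muscle fibre markers, 5 passed as lower and 1 as higher (median -0.14). These lists share Tnnt3, Tnni2, Pvalb and Atp2a1. Of 10 slow-fibre markers, 0 passed and 1 was above 0 (median -0.41). With a fast-fibre score as a covariate, added after seeing the data for these genes, neither was called, with -0.44 for Tkt (limma adjusted p = 0.653) and -0.20 for Pgm2 (adjusted p = 0.605), while the calls over all genes went from 108 to 20. The part of fibre content was not tested further. Ugp2, which makes UDP-glucose for glycogen, was among the highest (248.6 FPKM) and was not called.

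Of the 17 tested genes in the list of Mondo factors, thioredoxins and other alpha-arrestins, 1 was called (5.88%), with exercise averaged over diets, near the 3.86% of all genes called. Nedd4l, a ubiquitin ligase related to those that alpha-arrestins bind, had means of 2.40 ± 0.268 and 2.02 ± 0.278 FPKM in CON-pre and HFD-pre and of 3.44 ± 0.574 and 2.56 ± 0.214 FPKM in CON-post and HFD-post (log2 fold change 0.36, SE 0.081, limma adjusted p = 0.0202, or 0.0982 with a fast-fibre score as a covariate). The highest of the list, Txn2 (86.0 FPKM), the mitochondrial thioredoxin, and Nedd4 (80.2 FPKM) had log2 fold changes of -0.053 (SE 0.042) and 0.0082 (SE 0.038) in the same contrast and were not called.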
